A study of Mus musculus with 8 samples.

Results

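The genes described here encode cation channels: the voltage-gated calcium, sodium and potassium channels with their accessory subunits, the inward rectifier, two-pore and calcium-activated potassium channels, the pacemaker (HCN) channels, the TRPC, TRPM and TRPV channels, the inositol trisphosphate receptors and the PIEZO channels. They were chosen by gene symbol among the rows of the deposited count table, with a total of at least 16 counts over the 8 libraries. Of 186 rows with such a symbol, 42 reached that total, 42 held 1 to 15 counts and 102 were at 0 in every library. In the whole table, 4397 of 33514 rows reached the same total. The study measured RNA in cultured adult cardiomyocytes, the contractile cells of the heart, isolated from C57BL/6 mice by perfusion with collagenase and gravity settling. In the siHoxa5 group, 4 libraries came from cells transfected with a small interfering RNA against Hoxa5, a homeobox transcription factor. In the siN group, 4 libraries came from cells transfected with a negative control small interfering RNA. All 8 libraries received the adrenergic agonist phenylephrine, which makes cardiomyocytes grow in size as in hypertrophy, at 100 µM for 24 h, starting 24 h after transfection. No library without phenylephrine was analysed here, and the labels give neither the animals' age nor whether the 4 libraries of a group came from separate hearts or dishes, and the p-values given cover the spread among these libraries alone.

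Cation channels set the electrical behaviour of the heart cell. Sodium channels open first and give the upstroke of the action potential, L-type calcium channels then admit the calcium that triggers contraction, and several kinds of potassium channel end the action potential and hold the resting voltage. T-type calcium channels and HCN channels are best known from pacemaker cells and from the developing heart, and both are known to return in stressed ventricular muscle. Inositol trisphosphate receptors release calcium from internal stores after signalling through receptors such as those for phenylephrine, and calcium channel beta and alpha2delta subunits bring the pore-forming subunit to the membrane and shape its current.

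Library totals were small, between 560190 and 619942 counts in siHoxa5 and between 635824 and 658192 in siN. On these unscaled totals, 3 counts, the limit that a count of 0 allows, stood for 4.56 to 5.36 counts per 1000000 (CPM). The CPM of genes given below use scaled totals, on which this limit differs slightly. HOXA5 itself had 1, 3, 4 and 1 counts in the siHoxa5 libraries and 2, 0, 3 and 3 in the siN libraries. The ratio of these rates was 1.23 with an exact 95% interval of 0.421 to 3.66, so the knockdown could not be read from these counts, and the groups are named by their labels. The 10 cardiomyocyte markers held 6.71% to 6.93% of the counts in siHoxa5 and 5.34% to 5.67% in siN (two-sided exact permutation p = 0.0286, the smallest that 70 assignments allow; 0.2 adjusted over 7 marker lists). Most of these counts lay in MYH6 (126464) and MYH7 (131765). MYH6, MYH7, TTN and ACTN2 of that list rose, TNNT2 fell, and TNNI3 was at 0 in every library. RYR2, MYBPC3, TNNC1 and ACTC1 did not pass the adjusted threshold used below. In bulk RNA, a different number of cells of a type and a different amount of RNA per cell cannot be told apart. Of 8 fibroblast markers, 3 were tested and 1, COL1A1, rose. Together the 8 held 1.07% to 1.26% of the counts in siHoxa5 and 1.01% to 1.078% in siN. Nearly all of these counts lay in COL1A1 (46673) and COL1A2 (8649). POSTN had 21 counts, COL3A1 7, PDGFRA 1 and DCN 1, with LUM and TCF21 at 0. The markers of endothelial cells, smooth muscle and pericytes, macrophages and leukocytes, neurons and Schwann cells each held under 0.005% of the counts in every library, with 2 to 5 of the 6 or 7 markers of each list at 0. The part of these shares in the channel results was not tested.

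The classes of channel were covered unevenly. Of 10 pore-forming subunits of voltage-gated calcium channels listed, 8 reached 16 counts, as did 3 of 4 beta and 2 of 4 alpha2delta subunits. Of 40 pore-forming subunits of voltage-gated potassium channels, only 5 did, and the 6 TRPV channels were at 0 throughout. Of 20 non-coding or antisense rows with a channel symbol, 1 had a count and none reached 16. Among 36 genes taken as the channels of ventricular muscle, 10 were at 0 in all libraries, among them SCN2B, SCN4B, KCNA5, KCND2, KCNIP2, KCNE1, KCNJ2, KCNJ12 and TRPM4. Several of these carry major currents of the mouse ventricle, KCNJ2 the resting inward rectifier current and KCND2 with KCNIP2 the transient outward current, and they are reported only as listed at 0. The table spells its symbols as human genes are spelled. Of the 186 channel rows, 162 had a mouse namesake, of which 78 were at 0, and the 24 without one had no counts.

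**Figure D1:**
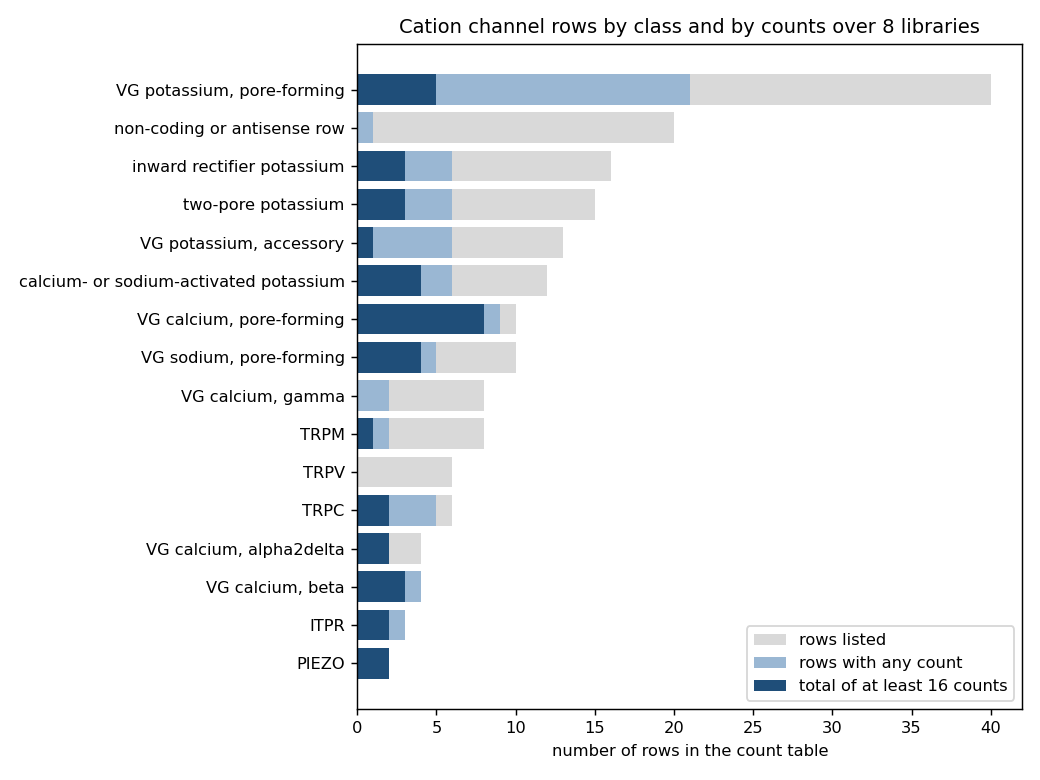
Bars give, for each class of channel (VG, voltage-gated), the number of rows in the count table (grey), the number with any count in the 8 libraries (light blue) and the number with a total of at least 16 counts (dark blue). The pore-forming calcium subunits are nearly all counted (8 of 10), while 5 of 40 pore-forming potassium subunits reach 16 counts. The bars do not cover every class.

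The total alone decided which genes are described. KCNAB1 entered with 16 counts and KCNJ9 and KCNMA1 with 17, while KCNA3 with 13 was the nearest gene left out, with TRPM3 at 12. CACNA1G, CACNB2, CACNA1C and TRPM7 were among the genes with the highest totals. Together the 42 genes took 0.248 ± 0.0156% of all counts in siHoxa5 and 0.221 ± 0.00681% in siN (SD, n = 4 each), with ranges of 0.232% to 0.270% and 0.212% to 0.229%.

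The comparison of siHoxa5 with siN asked which channel transcripts differed between the Hoxa5 and the control small interfering RNA, both under phenylephrine. With edgeR's quasi-likelihood test over all 4397 rows and Benjamini-Hochberg adjustment (threshold 0.05), 4 of the 42 channel genes passed, CACNA1G, KCNH2, KCNN2 and SCN1A, all higher in siHoxa5. That is 9.52% of the channel genes, where 4.18% of all rows tested passed (2.59% higher and 1.59% lower). In 7 channel genes the CPM of the groups did not overlap, 16.7% of the 42 against 9.17% of all rows. CACNA1G, CACNB2, ITPR1, KCNH2, KCNN2 and CACNA1E were higher in every siHoxa5 library than in any siN library. An unadjusted p under 0.05 was reached by 13 of the 42, where 15.7% of all rows reached it. The log2 fold change was above 0 in 24 channel genes and below 0 in 18, where 51.4% of all rows tested were above 0. The channel median was 0.18, against 0.01 over all rows tested. Without siN library 1 the channel median was 0.069, and without siN library 3 it was 0.12. Without siHoxa5 library 2, siN library 2 or siN library 3, the number passing was 2 instead of 4. The precision differed widely: the log2 fold changes had a median standard error of 0.18 in the 19 genes with at least 80 counts and 0.55 in the 23 with fewer.

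**Figure D2:**
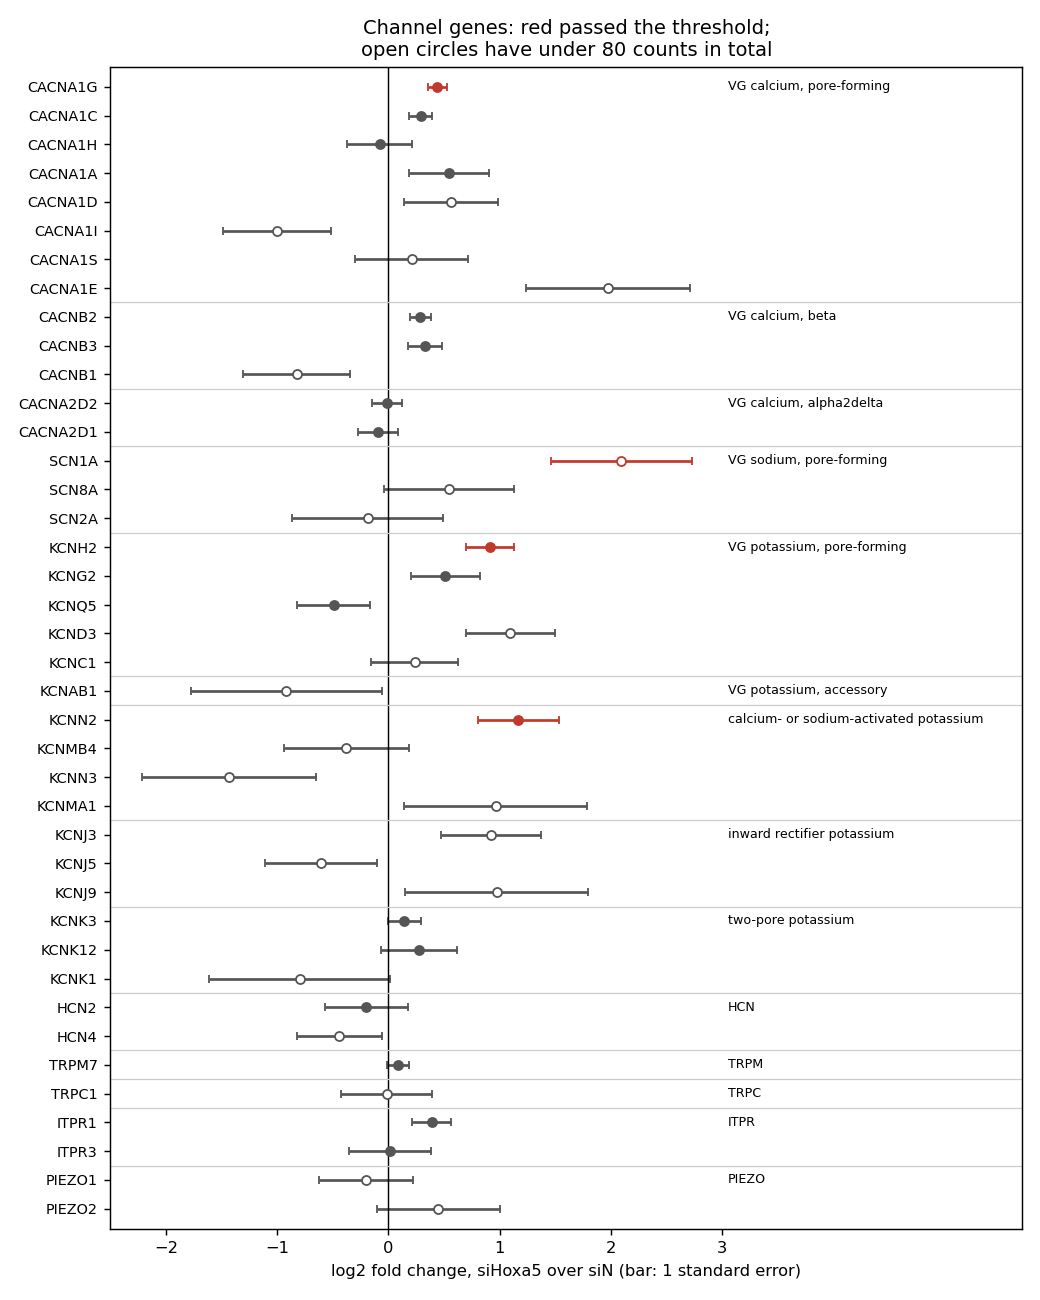
Points give the log2 fold change, siHoxa5 over siN, of 40 of the 42 channel genes by class (VG, voltage-gated), and bars 1 standard error. Red points, CACNA1G, SCN1A, KCNH2 and KCNN2, passed the adjusted threshold and lie right of 0; open circles have under 80 counts in total and the widest bars.

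Among calcium channels, CACNA1G stood out. It encodes a pore-forming subunit of T-type channels, which open at low voltage, and lies at chr11:94408391-94474198 (mm10, minus strand). It had 405, 512, 461 and 431 CPM in siHoxa5 libraries 1 to 4, against 326, 385, 311 and 309 CPM in siN libraries 1 to 4. Every siHoxa5 library was above every siN library. The gene rose in siHoxa5, with a log2 fold change of 0.44 (SE 0.09, adjusted p = 0.000188, 1922 counts in all), a ratio of means of 1.36. It passed in all 16 alternatives, with log2 fold changes of 0.38 to 0.52. It was also the channel gene with the highest CPM. Its relatives were far lower: per kilobase of transcript, CACNA1G averaged 53.9 ± 5.49 CPM in siHoxa5 and 39.7 ± 4.26 in siN, CACNA1H 3.26 ± 1.55 and 3.49 ± 0.502, and CACNA1I 0.674 ± 0.570 and 1.41 ± 0.222 (SD, n = 4 each). CACNA1G thus made up 93.2 ± 3.24% of the T-type subunit counts per kilobase in siHoxa5 and 88.9 ± 2.04% in siN. The ranges overlapped (90.2% to 96.3% and 86.4% to 91.4%). Such shares compare rows as counted, and whether the counting reached each gene evenly was not tested. Neither relative passed: CACNA1H, the T-type subunit best known from hypertrophy, had a log2 fold change of -0.08 (SE 0.29, adjusted p = 0.948), and CACNA1I one of -1.001 (SE 0.49, adjusted p = 0.292) on 52 counts.

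The subunits of the L-type channel missed the threshold. CACNA1C, the pore-forming subunit that carries the main calcium current of heart muscle, had 302, 334, 255 and 291 CPM in siHoxa5 libraries 1 to 4, against 255, 259, 222 and 229 CPM in siN libraries 1 to 4. siHoxa5 library 3 fell within the range of siN. The log2 fold change was 0.29 (SE 0.10, adjusted p = 0.0867). Over 16 alternatives it ranged from 0.18 to 0.36, with adjusted p-values of 0.0427 to 0.456. It passed in 1 of them, without siHoxa5 library 3 (0.36, adjusted p = 0.0427), and was smallest with the length and GC trend removed (0.18, adjusted p = 0.397). CACNA1D, another L-type subunit, which acts in pacemaker cells, and CACNA1S, the L-type subunit of skeletal muscle, averaged 15.3 ± 6.58 and 9.62 ± 5.86 CPM in siHoxa5 and 10.3 ± 3.35 and 8.41 ± 4.36 CPM in siN (log2 fold changes of 0.56, SE 0.42, and 0.21, SE 0.51). CACNA1C made up 87.4 ± 4.97% of the L-type counts per kilobase in siHoxa5 and 87.8 ± 4.69% in siN, with the same limit. A gene on the other strand, Dcp1b, overlaps CACNA1C and had 2 counts; 1 of the overlapping genes of CACNA1D, Dcp1a, had 30, and without strand such reads cannot be told apart.

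CACNB2, the main beta subunit of the cardiac L-type channel, had 312, 338, 290 and 307 CPM in siHoxa5 libraries 1 to 4, against 244, 261, 242 and 273 CPM in siN libraries 1 to 4. The groups did not overlap, yet the log2 fold change of 0.29 (SE 0.10) had an adjusted p of 0.0724. It missed the threshold in all 16 alternatives, with log2 fold changes of 0.24 to 0.32. Per kilobase CACNB2 had the highest CPM as counted of all 42 genes, 79.0 ± 4.96 in siHoxa5 and 64.6 ± 3.74 in siN. CACNB3, a beta subunit prominent in smooth muscle and brain, averaged 119 ± 13.3 CPM in siHoxa5 and 95.6 ± 18.4 in siN (0.33, SE 0.15, adjusted p = 0.257). CACNB1, the beta subunit of skeletal muscle, averaged 7.26 ± 1.95 CPM in siHoxa5 and 13.01 ± 4.27 in siN (-0.83, SE 0.48, adjusted p = 0.415).

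The alpha2delta subunits lay near 0. CACNA2D2 had between 135 and 140 CPM in siHoxa5 and between 117 and 166 in siN, a log2 fold change of -0.01 (SE 0.13), and CACNA2D1, the main alpha2delta subunit of the heart, averaged 72.4 ± 5.36 CPM in siHoxa5 and 77.1 ± 12.3 in siN, a log2 fold change of -0.09 (SE 0.18). CACNA1E, the pore-forming subunit of R-type channels known mainly from neurons, had 4, 5, 6 and 4 counts in siHoxa5 libraries 1 to 4, against 1, 0, 2 and 2 in siN libraries 1 to 4. The groups did not overlap, but with 24 counts the log2 fold change of 1.97 carried a standard error of 0.74 (adjusted p = 0.124). CACNA1A, a neuronal relative, averaged 21.2 ± 5.78 CPM in siHoxa5 and 14.6 ± 7.34 in siN. Summed, the 13 calcium channel genes had 1483 ± 70.4 CPM in siHoxa5 and 1230 ± 61.8 in siN. Of these sums the called CACNA1G gave 452 ± 46.0 and 333 ± 35.8, and the 2 alpha2delta genes 209 ± 7.48 and 215 ± 31.1. The log2 fold change was above 0 in 8 of the 13 and below 0 in 5.

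**Figure D3:**
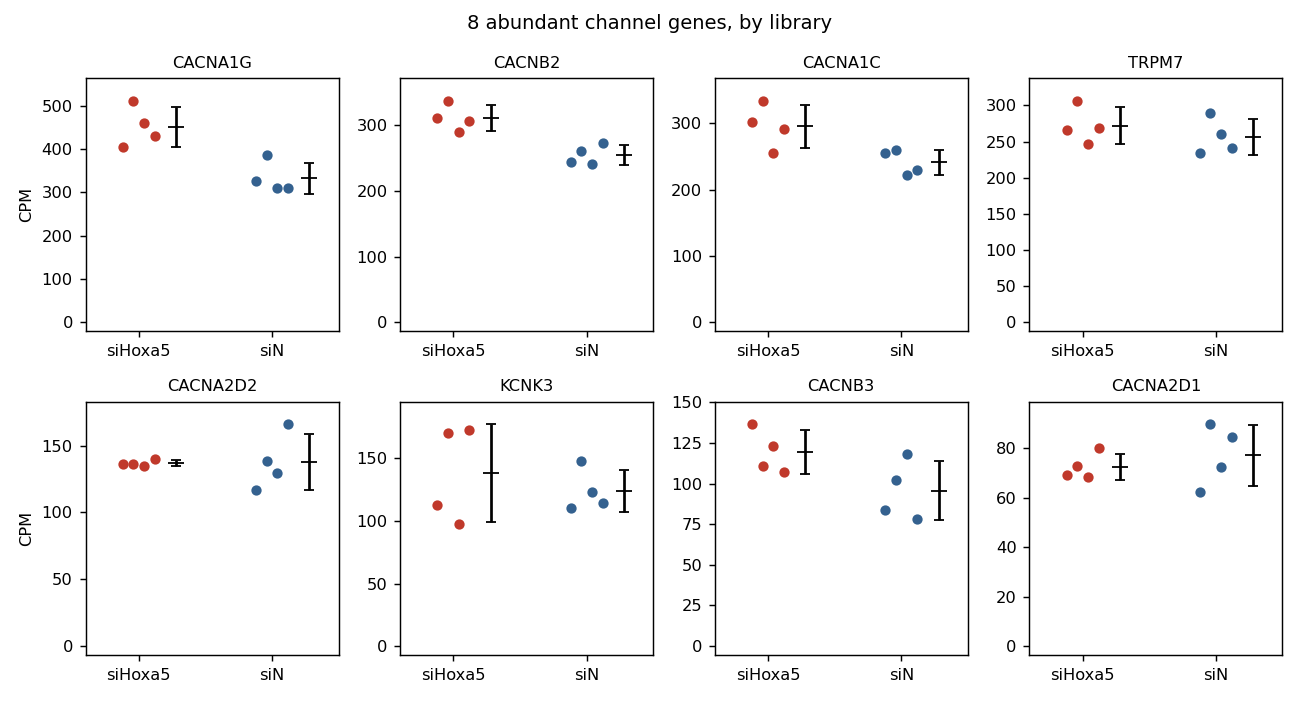
Points are the CPM of single libraries, siHoxa5 (red) left of siN (blue), for 8 abundant channel genes, with the mean and SD (n = 4) to the right of each group. CACNA1G and CACNB2 are higher in every siHoxa5 library, and the other 6 genes overlap.

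Among sodium channel genes, SCN1A, best known from neurons and the gene of several inherited epilepsies, had 2, 14, 11 and 5 counts in siHoxa5 libraries 1 to 4, against 0, 2, 0 and 6 counts in siN libraries 1 to 4. siHoxa5 library 1 lay below siN library 4, so the groups overlapped. SCN1A rose in siHoxa5, with a log2 fold change of 2.09 (SE 0.63, adjusted p = 0.0372), on 40 counts in all. The call held in 6 of 14 alternatives and was lost, with adjusted p-values of 0.102 to 0.264, when siHoxa5 library 2 or 3 or siN library 1, 2 or 3 was left out, while the log2 fold change was 1.65 or more in each. Changes of method, limma-voom among them, also lost it, and the highest adjusted p over the alternatives was 0.304. Its level was low, 1.66 ± 1.16 CPM per kilobase in siHoxa5 and 0.363 ± 0.509 in siN. Its chromosomal neighbour SCN2A, 503331 bases away on chromosome 2 and likewise neuronal, had 25 counts and a log2 fold change of -0.19 (SE 0.68). SCN8A, a further neuronal subunit, averaged 8.38 ± 4.70 CPM in siHoxa5 and 5.76 ± 3.84 in siN (0.55, SE 0.59).

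The promoter of SCN1A, 300 bases around the start annotated in RefSeq (GRCm38.p6, chr2:66440788-66441087, minus strand), is shown as that of a called gene; the capitals mark its single match to a searched motif, a CCAAT box.
SCN1A: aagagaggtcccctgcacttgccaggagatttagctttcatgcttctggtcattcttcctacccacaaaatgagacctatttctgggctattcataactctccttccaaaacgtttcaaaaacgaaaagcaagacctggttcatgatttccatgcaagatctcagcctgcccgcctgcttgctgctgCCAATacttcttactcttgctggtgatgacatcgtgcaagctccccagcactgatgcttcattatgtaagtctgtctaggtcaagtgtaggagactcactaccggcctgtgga

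KCNH2 was the potassium channel gene with the smallest p. It encodes the pore-forming subunit of the rapid delayed rectifier, the repolarizing channel that in people is blocked by many drugs that prolong the QT interval, and lies at chr5:24319589-24351604 (mm10). It had 65.8, 76.2, 71.4 and 56.3 CPM in siHoxa5 libraries 1 to 4, against 36.4, 36.2, 29.2 and 40.7 CPM in siN libraries 1 to 4. The lowest siHoxa5 library, library 4 with 31 counts, was above the highest siN library, library 4 with 27 counts. KCNH2 rose in siHoxa5, with a log2 fold change of 0.92 (SE 0.22, adjusted p = 0.00250, 251 counts), a ratio of means of 1.89. The call held in all 16 alternatives, with log2 fold changes of 0.83 to 0.99. KCNH2 made up 47.3 ± 6.58% of the counts per kilobase of the 5 voltage-gated potassium pore genes in siHoxa5 and 38.2 ± 7.77% in siN.

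The RefSeq promoter of KCNH2 in GRCm38.p6, at chr5:24329542-24329841 on the minus strand, lies inside the annotated span of the gene. It is shown as that of a call that held throughout, and the capitals mark 3 GC boxes (GGGCGG).
KCNH2: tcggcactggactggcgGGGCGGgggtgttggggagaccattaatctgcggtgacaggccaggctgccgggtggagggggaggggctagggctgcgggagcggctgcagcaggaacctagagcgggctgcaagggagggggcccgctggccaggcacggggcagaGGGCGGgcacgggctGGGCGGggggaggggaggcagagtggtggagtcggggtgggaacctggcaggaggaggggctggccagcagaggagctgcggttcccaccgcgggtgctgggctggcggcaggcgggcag

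The other voltage-gated potassium channel genes did not pass. KCND3, a pore-forming subunit of the transient outward channel, had 19.3, 27.2, 12.98 and 30.9 CPM in siHoxa5 libraries 1 to 4, against 18.2, 1.57, 15.4 and 6.03 CPM in siN libraries 1 to 4. The groups overlapped, and the log2 fold change of 1.096 (SE 0.40) had an adjusted p of 0.1098. KCNG2, a subunit that has no current of its own and modifies its partners, averaged 28.3 ± 6.84 CPM in siHoxa5 and 19.95 ± 6.04 in siN (0.51, SE 0.31). KCNQ5, a relative of the slow delayed rectifier subunit KCNQ1, averaged 17.8 ± 8.63 CPM in siHoxa5 and 25.3 ± 3.59 in siN (-0.49, SE 0.33). KCNC1, known from fast-spiking neurons, had a log2 fold change of 0.24 (SE 0.39), and the accessory subunit KCNAB1 one of -0.92 (SE 0.85). Summed, the 5 pore-forming genes, with the called KCNH2 among them and KCNAB1 left out, had 152 ± 3.94 CPM in siHoxa5 and 105 ± 12.5 in siN. KCNH2 alone averaged 67.4 ± 8.55 CPM in siHoxa5 and 35.6 ± 4.75 in siN.

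KCNN2, a calcium-activated potassium channel of small conductance that is known mainly from atrial muscle and neurons, had 19.3, 21.8, 27.6 and 29.1 CPM in siHoxa5 libraries 1 to 4, against 15.2, 7.86, 7.69 and 12.1 CPM in siN libraries 1 to 4. The groups did not overlap. KCNN2 rose in siHoxa5, with a log2 fold change of 1.17 (SE 0.37, adjusted p = 0.0467, 85 counts), just inside the threshold. The call held in 6 of 15 alternatives, and the log2 fold changes over all 15 were 1.04 to 1.38. It was lost when siHoxa5 library 2, 3 or 4 or siN library 2, 3 or 4 was left out (adjusted p from 0.0678 to 0.149). Changes of method, limma-voom among them, also lost it, and the highest adjusted p over the alternatives was 0.202. Its relative KCNN3 had the opposite sign on 21 counts, at 2.16 ± 1.64 CPM in siHoxa5 and 6.14 ± 2.18 in siN (-1.44, SE 0.78, adjusted p = 0.377). The large-conductance channel gene KCNMA1 (17 counts, 0.97, SE 0.82) and its beta subunit KCNMB4 (37 counts, -0.38, SE 0.56) did not pass.

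None of the inward rectifier or two-pore potassium channel genes passed. KCNJ3, a subunit of the G protein-gated channel that acetylcholine opens in atrial and pacemaker cells, averaged 15.6 ± 4.64 CPM in siHoxa5 and 8.03 ± 2.78 in siN (0.92, SE 0.45, adjusted p = 0.287). KCNJ5, its partner in that channel, averaged 7.21 ± 1.78 CPM in siHoxa5 and 11.1 ± 4.998 in siN (-0.60, SE 0.50), so the pair differed in sign without either passing. KCNJ9, a neuronal relative, had 17 counts and a log2 fold change of 0.97 (SE 0.82). KCNK3, an acid-sensitive two-pore channel and the potassium channel gene with the highest CPM, had 112, 171, 97.3 and 173 CPM in siHoxa5 libraries 1 to 4, against 111, 148, 123.1 and 115 CPM in siN libraries 1 to 4. siHoxa5 libraries 2 and 4 were above all siN libraries and libraries 1 and 3 were not. The log2 fold change was 0.14 (SE 0.15) with all libraries and -0.24 without siHoxa5 libraries 2 and 4. KCNK12 and KCNK1, further two-pore genes, had log2 fold changes of 0.27 (SE 0.34) and -0.80 (SE 0.81). Over all 16 potassium channel genes, KCNH2 and KCNN2 among them, the sum was 383 ± 47.1 CPM in siHoxa5 and 305 ± 14.9 in siN. The log2 fold change was above 0 in 10 of the 16 and below 0 in 6.

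**Figure D4:**
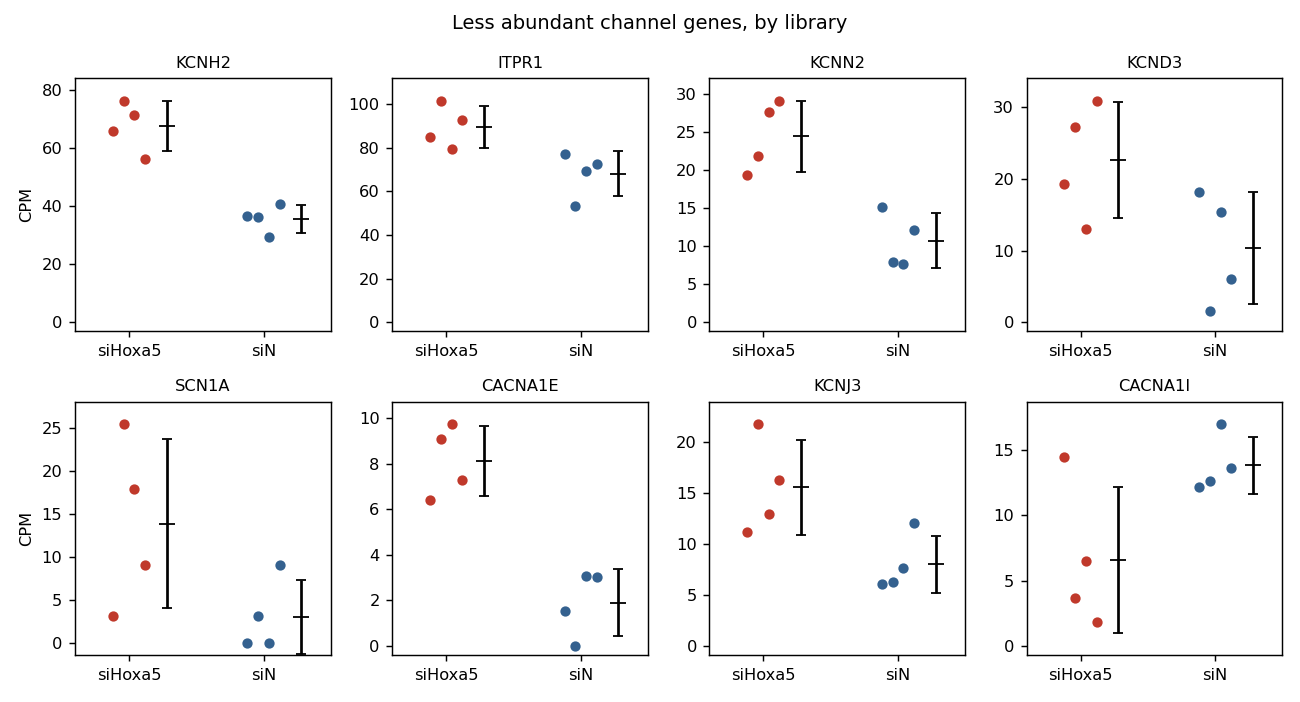
Points are the CPM of single libraries, siHoxa5 (red) left of siN (blue), for 8 channel genes of lower abundance, with the mean and SD (n = 4) to the right of each group. KCNH2, ITPR1, KCNN2 and CACNA1E are higher in every siHoxa5 library, while KCND3, SCN1A, KCNJ3 and CACNA1I overlap.

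The pacemaker channel genes HCN2 and HCN4 were both below 0 without passing. HCN2 averaged 15.2 ± 8.60 CPM in siHoxa5 and 17.6 ± 3.85 in siN (-0.20, SE 0.37), and HCN4, the main subunit of the sinus node, averaged 13.1 ± 5.17 CPM in siHoxa5 and 17.99 ± 4.22 in siN (-0.44, SE 0.38). Their sum varied more in siHoxa5, at 28.3 ± 13.5 CPM, than in siN, at 35.6 ± 1.74.

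ITPR1, an inositol trisphosphate receptor, had 85.1, 102, 79.5 and 92.7 CPM in siHoxa5 libraries 1 to 4, against 77.4, 53.5, 69.2 and 72.4 CPM in siN libraries 1 to 4. The groups did not overlap, though siN library 1 came close to siHoxa5 library 3. The log2 fold change of 0.39 (SE 0.17) had an adjusted p of 0.238 and did not pass in any of the 16 alternatives. ITPR3, another receptor of the family, averaged 16.3 ± 4.93 CPM in siHoxa5 and 16.1 ± 0.802 in siN, and ITPR2, the receptor usually named as the main one of heart muscle cells, had 2 counts in all. TRPM7, a channel joined to a kinase that conducts magnesium and calcium, was among the best measured genes, with 247 to 307 CPM in siHoxa5 and 234 to 289 CPM in siN. Its log2 fold change was 0.09 with a standard error of 0.10 (adjusted p = 0.766). TRPC1, a channel linked to receptor signalling, had a log2 fold change of -0.02 (SE 0.41, 68 counts). PIEZO1 and PIEZO2, which open when the membrane is stretched, had -0.20 (SE 0.42) and 0.45 (SE 0.55).

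Lists of related genes, written with earlier results of these data known, place the channels among their surroundings. Of the 36 genes taken as ventricular channels, 18 were tested. CACNA1G, KCNH2 and KCNN2 rose, none fell, and 15 did not pass, with a median log2 fold change of 0.12. That list also holds genes described above from atrial or pacemaker cells, KCNN2, KCNJ3, KCNJ5, HCN4 and CACNA1D among them. Of 46 genes of other channels (ryanodine receptors, store-operated, mitochondrial, lysosomal and chloride channels among them), 15 were tested, none rose and 1 fell, with a median of 0.07. The gene that fell was LRRC8A, a subunit of the volume-regulated anion channel, at 575 ± 33.2 CPM in siHoxa5 and 697 ± 42.1 in siN (-0.28, SE 0.07, adjusted p = 0.00697); its call was lost without siHoxa5 library 3 (adjusted p = 0.0549) and without siN library 4 (0.0803). Of 37 partners of channels (anchoring, regulatory and trafficking proteins), 19 were tested and 1 rose, with a median of 0.11. That gene was FGF13, an intracellular protein of the fibroblast growth factor family that binds sodium channels and alters their gating, at 138 ± 21.9 CPM in siHoxa5 and 71.7 ± 8.82 in siN (0.94, SE 0.16, adjusted p = 4.30e-06, called in all 16 alternatives). Of 19 transcription factors known to act on channel genes, 12 were tested and 1 rose, with a median of 0.00: MEF2C, at 425 ± 31.8 CPM in siHoxa5 and 326 ± 30.1 in siN (0.38, SE 0.09, adjusted p = 0.00187). In each list the share that passed can be read against the 4.18% of all rows.

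Of the other channels listed, those at 0 in all libraries included ORAI2, TPCN2, MCOLN1, MCOLN2, MCOLN3, TMEM175, TMEM63A, TMEM63C, TMEM38A, TMEM38B, NALCN, TRPA1, P2RX7, LRRC8B, LRRC8C, LRRC8E, CLCN4, ANO1 and ANO6. The partners at 0 included SNTB1, AKAP5, RRAD, GEM, REM1, DPP6, DPP10, ABCC8, ABCC9, RANGRF, GPD1L and PLN, and the transcription factors at 0 were TBX5, TBX20, KLF15 and HEY2. PLN, the inhibitor of the calcium pump, and TBX5 are well-known heart genes. Their zeros are given only as listed values.

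The channel genes had long transcripts. The median length of their longest annotated protein-coding transcript was 6613 bases, against 4073 bases over the tested rows with a length, and 28 of the 42 were longer than that median row. Their median GC content was 54.2%, against 48.8%. Over 4197 rows, the log2 fold change and the transcript length had a Spearman correlation of 0.15, and over the 42 channel genes of 0.32; genes in 1 set of libraries are not independent, and this is a description. With the trend on length and GC content removed library by library, CACNA1G, KCNH2 and KCNN2 still passed, and SCN1A no longer did (adjusted p = 0.0586).

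RefSeq promoters (GRCm38.p6, 300 bases each) were matched for 32 of the 42 genes, 43 promoters in all. Their median GC content was 62.7%, against 52.7% over all 32851 promoters, and the observed-to-expected CpG ratio 0.589 against 0.384. Matches were counted on both strands. A GC box (GGGCGG) was present in 51.2% of the channel promoters and in 35.7% of all promoters, and a CCAAT box (CCAAT) in 18.6% and 37.4%. TATAAA was present in 11.6% and 13.6%, CAGCTG in 16.3% of both, and CTANNNNTAG, a MEF2 motif, in 2.33% and 3.69%. The homeodomain core TAATTA and the GATA motif AGATAA were in none of the 43, and in 5.29% and 11.2% of all promoters. These counts describe letters in short windows, and no test of them was made.

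Across the processing alternatives the genes separated into those whose calls held and those that moved with single libraries or with the method. CACNA1G and KCNH2 kept both the call and the size of the difference. KCNN2 and SCN1A kept the direction while the call came and went. CACNB2, CACNA1C and ITPR1 stayed above 0 in all 16 alternatives, with 1 call for CACNA1C and none for CACNB2 and ITPR1. KCND3 stayed above 0 in 15 of 15, from 0.63 to 1.51, without a call.

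**Figure D5:**
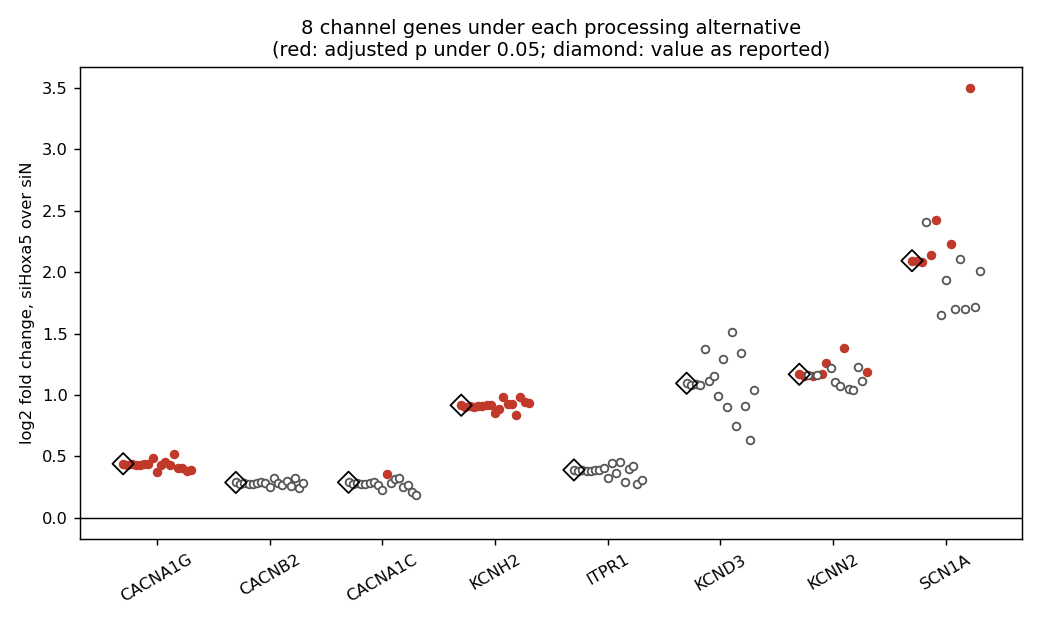
Each column shows the log2 fold change, siHoxa5 over siN, of 1 channel gene as reported (diamond) and under each processing alternative, left to right in a fixed order; red points have an adjusted p under 0.05. CACNA1G and KCNH2 are red throughout, KCNN2 and SCN1A in part, and all values of these 8 genes lie above 0.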

How the data were processed

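Poly-A RNA of 8 libraries was sequenced (TruSeq kit, NovaSeq), per the labels' protocols. The authors deposited estimated counts per gene symbol, not normalized; 4 rows hold values ending in 0.5. The submitters' processing notes name mm10 as the build and STAR 2.6.1b, HTSeq, FastQC 0.11.8 and R 3.5.3 as tools. They name no annotation or strand setting.

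Groups follow the sample titles. Counts were rounded and all rows with a total of at least 16, the total that defines the channel genes, were tested with edgeR 4.0.16 (robust quasi-likelihood fit, TMM scaling, group as the only term; limma 3.58.1, R 4.3.3), adjusted by Benjamini-Hochberg and called under 0.05. CPM use TMM-scaled totals. DESeq2 1.42.0 and limma-voom were alternatives. The fit was tested on simulated data. All 42 symbols matched a GENCODE M21 mouse gene once case was ignored; lengths and coordinates come from it. Libraries of a group differed by more than counting noise. The chi-square per degree of freedom was 1.47 to 2.59 between pairs of siHoxa5 libraries and 1.35 to 1.54 between pairs of siN libraries. Intervals and limits cover counting error only.

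Named genes are those past the threshold, those whose groups do not overlap, the most abundant of each class, the 10 with the highest CPM, HOXA5, genes at the total's threshold and, of each list, those called or at 0; others were chosen after their values were seen. The channel genes and lists were chosen with earlier results of these data known. A few genes under this rule are left unreported.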

Additional observations from a re-analysis of the deposited data

Results flagged for a closer look

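Of 80 groups of 4 libraries, 1 for each channel gene reported and group, 2 held a library far from the other 3 by Dixon's 95% criterion; chance flags about 1 group in 20. KCNK12 had 7.69 CPM in siN library 3, with the others between 20.4 and 22.8. HCN4 had 24.3 CPM in siN library 1, with the others between 15.4 and 16.6.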

How the results depend on the processing

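Of 18 alternatives in all, at most 16 gave values of a single gene. Over these, 623 of 668 values of single genes kept their direction and side of the threshold. DESeq2 called 116 genes in all, against 184, and 2 channel genes, with no adjusted p for KCNN2 and SCN1A; limma-voom and the fit without siHoxa5 replicates 2 and 4, which stood apart on the first principal component, also called 2. Leaving out each library gave 130 to 235 genes, 2 to 4 channel genes and a channel median log2 fold change of 0.069 to 0.21. That median was 0.26 with edgeR's expression filter, which 21 channel genes passed, and 0.27 over genes with at least 80 counts. Genes near 0 changed sign: without siHoxa5 replicates 2 and 4, KCNK3 was at -0.24, CACNA1H at 0.34, HCN2 at 0.077, ITPR3 at -0.14, TRPC1 at 0.15, PIEZO1 at 0.26 and SCN2A at 0.076; with limma-voom, CACNA2D2 was at 0.0034 and ITPR3 at -0.017; with the length and GC trend removed, ITPR3 was at -0.039. Leaving out 1 library gave -0.081 to 0.095 for CACNA2D2, -0.42 to 0.11 for CACNA1H, -0.21 to 0.11 for ITPR3, -0.25 to 0.22 for TRPC1, -0.79 to 0.13 for PIEZO1, -0.27 to 0.46 for CACNA1S and -0.60 to 0.18 for SCN2A. The cause was not tested. Same-numbered libraries share only a number (correlations -0.01 to 0.08; 2 of 4 siHoxa5 libraries correlated best with their own number); with the replicate block 210 genes and 4 channel genes were called, and the channel median was 0.16. Depth limits the 23 genes under 80 counts.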
